A study of Mus musculus with 15 samples.

Results

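Mitochondrial complex I (NADH:ubiquinone oxidoreductase) was followed through the genes whose mouse symbols start with Nduf, in femoral RNA of mice that flew to the International Space Station or stayed on the ground, with or without a segmental bone defect. Array probes were assigned to a gene through the transcript accession they carry, and each gene was represented by the probe with the highest mean log2 Cy5 signal over all 15 arrays. This gave 46 genes with 54 probes, of 21154 genes and 55681 probes on the array, and 8 further Nduf symbols of the reference annotation had no matched probe. The 46 genes comprised 36 subunits, 8 assembly factors (the Ndufaf genes) and a pair described apart, Ndufa4, which current annotation counts with complex IV, and its paralogue Ndufa4l2.

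All mice were male C57BL/6J animals, given in the labels as 9 weeks old. The G-Sham group (4 arrays, replicates 1, 3, 4 and 5) had no bone defect and stayed on the ground, and FLT-Sham (4 arrays, replicates 4, 6, 8 and 9) had none and flew. G-Surgery (4 arrays, replicates 1, 3, 4 and 5) and FLT-Surgery (3 arrays, replicates 1, 3 and 5) received a femoral defect bridged by a scaffold, wrapped in a collagen sponge soaked in saline, before launch and were kept on the ground or flown for some weeks. Ground mice lived in the same kind of hardware a few days later. The labels call the Sham mice unoperated whereas the methods speak of sham surgery, and the labels give the tissue as callus for every sample, although in Sham mice it is the matching stretch of intact femur. The frozen segments were milled for RNA, and for these the study describes no separation of bone, marrow or attached soft tissue. In such bulk RNA fewer cells of a type and less RNA per cell cannot be told apart. The study describes the RNA integrity of these bones as low. On each array the mouse's RNA was labelled with Cy5 and a purchased RNA pool of 11 mouse cell lines with Cy3, and every value below is the log2 of Cy5 over Cy3 unless it is called a difference. A value of 0 stands for the same signal as the reference or for a spot that was measurable in neither channel, and values of different genes do not rank the genes by abundance.

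Complex I takes electrons from NADH, passes them through a chain of iron-sulfur clusters to ubiquinone, and pumps protons across the inner mitochondrial membrane. It is L-shaped, with a matrix arm that holds the redox centres and a membrane arm that holds the pumps. The core subunits do the catalysis, those of the matrix arm being encoded in the nucleus and those of the membrane arm in mitochondrial DNA, and the many accessory subunits stabilize the complex. Assembly factors help to build it and leave before it is complete. Skeletal muscle, above all its slow oxidative fibres, is rich in mitochondria, and bone-forming cells, marrow cells and fat hold them as well.

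The subunits were well measured. Of the 36, 28 gave a Cy5 signal well above background on all 15 arrays and all 36 did on at least 3, and no member was saturated. Assembly factors were dimmer, with 3 of 8 above background on all 15 arrays, 7 on at least 3 and Ndufaf8, the partner protein of Ndufaf5, on none. By arm, 16 subunits belong to the matrix arm and 19 to the membrane arm, and Ndufab1, the mitochondrial acyl carrier protein, sits in both. On each array 12488 to 21457 probes were above background in Cy5.

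The median over the 36 subunits was -0.70, 0.53, 0.56 and 0.93 in G-Sham replicates 1, 3, 4 and 5. It was 1.56, 1.82, -0.24 and 1.24 in FLT-Sham replicates 4, 6, 8 and 9. Thus 3 flown Sham mice lay above every G-Sham mouse, and FLT-Sham replicate 8 lay below 3 of the 4. In G-Surgery replicates 1, 3, 4 and 5 the subunit median was -0.59, 0.59, 0.10 and 0.43. In FLT-Surgery replicates 1, 3 and 5 it was -0.06, -0.87 and -1.27. FLT-Surgery held the lowest pair of the 15 arrays, while its replicate 1 lay within the range of G-Surgery.

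**Figure D1:**
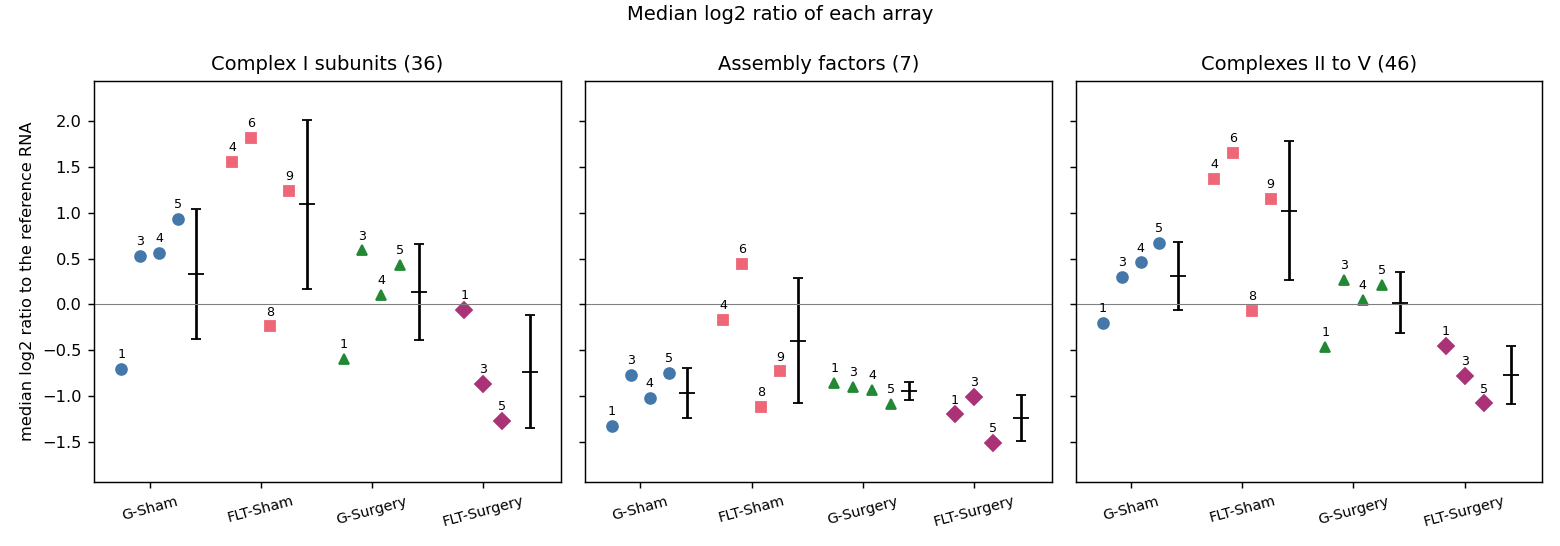
Median log2 ratio to the reference RNA of the complex I subunits, the assembly factors and the subunits of complexes II to V on each of the 15 arrays, by group, with replicate numbers above the points and bars for the mean ± SD of each group. FLT-Sham replicates 4, 6 and 9 carry the highest subunit medians (1.24 to 1.82) and FLT-Surgery replicates 3 and 5 the lowest (-0.87 and -1.27).

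Whole arrays moved the subunits together. FLT-Sham replicate 8 had the lowest value of its group for 35 of 36 subunits, and so it did for 46.4% of 21766 probes. G-Sham replicate 1 was the lowest of its group for 33 of 36 subunits and 49.4% of probes. In G-Surgery, replicate 1 was lowest for 30 of 36 subunits against 19.3% of probes. FLT-Surgery replicate 1 was the highest of its group for 32 of 36 subunits and 45.1% of probes. These positions were looked up after the values had been seen and carry no test. The assembly factors followed less: the same arrays held the same position for 5, 4, 2 and 4 of the 7 that were above background on at least 3 arrays.

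Skeletal muscle transcripts were abundant on these arrays. The median over 16 skeletal muscle markers, such as creatine kinase Ckm and the fast myosins, was 4.96 to 9.05 in G-Sham, 6.72 to 8.96 in FLT-Sham, 5.58 to 8.20 in G-Surgery and 3.66 to 7.96 in FLT-Surgery. The 5 arrays with the lowest subunit medians were the 5 with the lowest skeletal muscle medians, namely G-Sham replicate 1, FLT-Sham replicate 8, G-Surgery replicate 1 and FLT-Surgery replicates 3 and 5. The match was not particular to muscle, as the same 5 arrays had the lowest medians of the mitochondrial ribosomal proteins (-2.19 to -1.14). The 5 lowest arrays were shared in 4 cases with complexes II to V, in 4 with the median of all probes, and in 3 with the slow-twitch markers. Casq1, the calcium buffer of muscle stores, and Mylpf, a fast myosin light chain, were above background on no Surgery array. The 8 slow-twitch markers had medians of 2.89 to 5.64 in G-Sham, 4.01 to 8.26 in FLT-Sham, 3.09 to 7.09 in G-Surgery and -0.90 to 1.43 in FLT-Surgery, where Csrp3, Myoz2, Tnnc1 and Tnni1 were above background on no array. Neutrophil markers had medians of 1.58 to 4.59, 3.79 to 6.17, 1.99 to 4.2 and 0.43 to 3.59 in these 4 groups, and erythroid markers 3.0 to 5.44, 4.39 to 6.57, 2.33 to 4.49 and 2.13 to 3.43. Of 7 adipocyte markers, 3 were above background on no G-Sham array, 1 on no FLT-Sham array and 5 on no array of either Surgery group, so no medians by array are given for them. The part of these cell types in the complex I values was not tested.

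**Figure D2:**
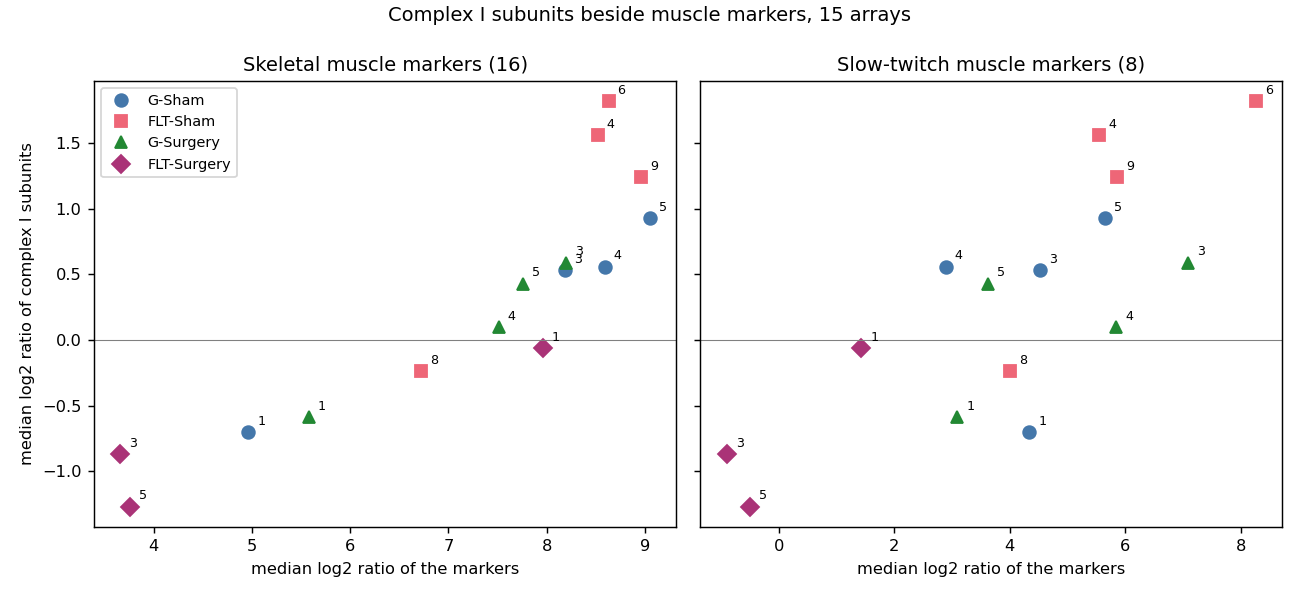
Median log2 ratio of the 36 complex I subunits (vertical axis) against the median log2 ratio of the 16 skeletal muscle markers (left) or the 8 slow-twitch markers (right), with 1 point per array, its replicate number and a symbol for its group. The 5 arrays with the lowest skeletal muscle medians (3.66 to 6.72) are also the 5 with the lowest subunit medians, while the 5 lowest by slow-twitch markers share 3 with them.

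Spaceflight was first compared within the Sham mice. The subunits lay higher in FLT-Sham than in G-Sham, with a median log2 difference of 0.74 (-0.14 to 1.45 over 36 subunits, 35 of them above 0), beside 0.24 for all 19730 probes tested. The matrix arm (0.71) and the membrane arm (0.80) differed by similar amounts, and the 7 nuclear core subunits had a median of 0.69. Assembly factors had a median difference of 0.12 (-0.75 to 1.34, 4 of 6 above 0), which was 0.45 without the filter on dim probes, 0.23 with all tested probes of a gene averaged and -0.25 with loess, a dye normalization that follows signal strength. No complex I gene passed an adjusted p of 0.05 in limma, and neither did any other probe (0%). At an unadjusted p of at most 0.05, 1 of the 44 members tested was higher in flight, against 8.01% of all probes. None met the study's cut-off of a 2-fold change with p of at most 0.01, which 2.0% of probes met, and none had FLT-Sham arrays all above the G-Sham arrays, as 3.64% of probes did.

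The member past an unadjusted p of 0.05 was Ndufa4l2, a gene induced by hypoxia. Its values were -2.39, 0.65, 0.49 and 1.42 in G-Sham and 3.18, 3.14, 0.80 and 2.47 in FLT-Sham. The difference was 2.35 (SE 0.87, adjusted p = 0.503), with FLT-Sham replicate 8 inside the G-Sham range. Next in order of p were Ndufa3, a small membrane-arm subunit (difference 0.67, SE 0.33, adjusted p = 0.522), Ndufa12, which caps the NADH-binding part of the matrix arm (1.26, SE 0.73, adjusted p = 0.528), Ndufv2 (0.75, SE 0.45, adjusted p = 0.531) and Ndufa1, also of the membrane arm (1.07, SE 0.65, adjusted p = 0.532), all by limma. Members below 0 were Ndufa10, at -0.14, and the assembly factors Ndufaf5 and Ndufaf7, at -0.28 and -0.75. Ndufs8, a core subunit with iron-sulfur clusters, was above background on 3 of 4 FLT-Sham arrays and on no other array. It thus entered the comparison through FLT-Sham alone, and its difference of 1.01 (adjusted p = 0.596) was -0.10 with normexp, a model-based background correction followed by loess, so no bound is given. Without FLT-Sham replicate 8, the count at an unadjusted p of at most 0.05 went from 1 to 35 of 44, against 25.0% of probes, with a subunit median of 1.14 and none past the adjusted threshold (2.98% of probes). Leaving out FLT-Sham replicate 4, 6 or 9 took the unadjusted count to 0 (2.35 to 3.05% of probes). Beside these differences the skeletal muscle markers had a median difference of 0.57 (11 of 16 above 0, none with an unadjusted p of at most 0.05) and the slow-twitch markers one of 1.19 (8 of 8 above 0, none past it). The adipocyte markers had one of 3.39 (5 of 5 above 0, all past it, though Pck1 and Plin1 were above background on no G-Sham array). Neutrophil markers had one of 1.79 (7 of 9 above 0, 3 past it) and erythroid markers one of 1.81 (3 of 4 above 0, 1 past it). Osteoblast and osteocyte markers had one of 1.69 (4 of 6 above 0, 2 past it) and osteoclast markers one of 1.88 (2 of 3 above 0, none past it). The part of these cell types was not tested.

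Spaceflight within the Surgery mice gave differences of the other sign. The subunits lay lower in FLT-Surgery than in G-Surgery, with a median difference of -0.79 (-2.02 to 0.06, 34 of 35 below 0) beside -0.20 for all 16545 probes. The matrix arm (-0.78) and the membrane arm (-0.80) again differed by similar amounts. The core subunits had a median of -0.55 and the assembly factors one of -0.45 (-0.83 to 0.45, 4 of 5 below 0). No member and no probe passed the adjusted threshold (0%). Of 42 members tested, 9 were lower at an unadjusted p of at most 0.05, against 11.0% of probes, and 8 of the 9 were subunits. None met the study's cut-off (3.14% of probes), and 1 had FLT-Surgery arrays all below the G-Surgery arrays (7.54% of probes).

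Ndufa4 had the smallest p of this comparison. It read -1.97, 0.16, -1.22 and -0.51 in G-Surgery and -1.48, -3.58 and -4.23 in FLT-Surgery, so replicate 1 of FLT-Surgery overlapped with the ground mice. The difference was -2.21 (SE 0.75, adjusted p = 0.280). Ndufa8, an accessory subunit of the membrane arm on its intermembrane side, read -1.48, 0.04, -0.44 and 0.80 in G-Surgery and -0.69, -2.75 and -3.43 in FLT-Surgery, a difference of -2.02 (SE 0.76, adjusted p = 0.287). Here too 2 arrays carried the difference, and on both the probe was not above background. Ndufs3, a core subunit of the quinone-reducing part, read -0.10, 0.97, 0.78 and 0.92 in G-Surgery and 0.02, -0.19 and -0.82 in FLT-Surgery (difference -0.97, SE 0.37, adjusted p = 0.287). Ndufb3, a membrane-arm subunit, differed by -1.17 (adjusted p = 0.289) and the core subunit Ndufs7 by -0.79 (adjusted p = 0.291). Ndufs1, the largest core subunit, lay at the other end, with a difference of 0.06 (SE 0.26). Ndufab1 was the member whose groups did not overlap, at -0.75, -0.40, -0.99 and -1.09 against -1.51, -1.39 and -3.77. Ndufab1 and Ndufa11 were above background on 4 and 3 G-Surgery arrays and on no FLT-Surgery array, so they entered the comparison through the group in which they were higher and their direction was set by that filter. Ndufab1 differed by -1.42 (adjusted p = 0.298) but by -0.09 with normexp. Ndufa11 differed by -0.95 (adjusted p = 0.358) but by 0.27 with normexp, and no bound is given for either gene. Without this pair the subunit median was -0.78 (32 of 33 below 0), 8 of 40 members were lower at the unadjusted p, and no member was without overlap.

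In the Surgery comparison the muscle markers moved with the subunits, with a median difference of -1.68 over 14 skeletal muscle markers tested (14 below 0, 2 with an unadjusted p of at most 0.05) and of -4.95 over 6 slow-twitch markers (6 below 0, all 6 past it). Of these 6, Csrp3 and Myoz2 were above background on no FLT-Surgery array and entered through G-Surgery alone, so the filter set their direction. Neutrophil markers moved with the subunits as well, at -1.42 (7 of 8 below 0, 4 with an unadjusted p of at most 0.05), and erythroid markers had a median of -1.07 (3 of 4 below 0, 1 past it). Osteoblast and osteocyte markers had a median of -0.12 (4 of 5 below 0, none past it) and osteoclast markers one of -0.90 (3 of 3 below 0, none past it). The part of these cell types was not tested. Single arrays decided the counts. Without FLT-Surgery replicate 1, which had the highest muscle median of its group (7.96), 32 of 42 members were lower at an unadjusted p of at most 0.05 (21.6% of probes) and 5 passed the adjusted threshold (8.37% of probes), with a subunit median of -1.06. Leaving out G-Surgery replicate 1 gave 20 of 41 at the unadjusted p (8.27% of probes), and leaving out any other array gave 0 to 2 (5.39 to 10.9% of probes). With slide as a block the count was 23 of 42 (17.5% of probes). It was 1 lower and 1 higher with loess (2.56% of probes lower), 1 with array centring (4.38%) and 4 with the Cy5 channel alone (6.29%).

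Surgery on the ground went with small differences. Between G-Surgery and G-Sham the subunit median was -0.27 (-0.89 to 0.73, 31 of 35 below 0) beside 0.14 for all 17670 probes, and the assembly factors had a median of -0.16. No member passed an adjusted p of 0.05 (0.0113% of probes did), none was lower at an unadjusted p of at most 0.05 (2.73% of probes), none met the study's cut-off (2.59%), and none had G-Surgery arrays all below the G-Sham arrays (1.56%). The smallest p belonged to Ndufc2, a membrane-arm subunit, at -3.18, -1.96, -1.49 and -1.36 in G-Sham and -3.59, -2.38, -2.79 and -2.80 in G-Surgery (difference -0.89, SE 0.45, adjusted p = 0.502). Ndufa4l2 had the highest difference, 1.26 (SE 0.74, adjusted p = 0.544). Its 4 G-Surgery arrays lay close together at 0.88 to 1.52, while G-Sham spread from -2.39 to 1.42. On slide 1, with 3 G-Surgery arrays and 1 G-Sham array, the subunit median difference was -0.48, and on slide 2, with 1 and 2 arrays, it was 0.30, so the direction differed between slides. Skeletal muscle markers had a median difference of -0.20 here. Osteoclast markers had one of 1.87 (3 of 3 above 0, all with an unadjusted p of at most 0.05). Osteoblast and osteocyte markers had one of -0.37 (4 of 6 below 0, with 2 higher past it). Without G-Sham replicate 1, 8 members were lower at an unadjusted p of at most 0.05 (8.63% of probes) and the subunit median was -0.58, and without G-Surgery replicate 1 it was -0.03.

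Surgery in flight gave the largest differences of the 4 comparisons for the subunits. FLT-Surgery lay below FLT-Sham for all 36 (32 of 36 with normexp), with a median difference of -1.70 (-3.47 to -0.58) beside -0.28 for all 19125 probes. The membrane arm had a median of -2.09, the matrix arm -1.70 and the core subunits -1.69. Assembly factors had a median of -1.04 (-2.75 to 0.59, 5 of 6 below 0). At an unadjusted p of at most 0.05, 34 of 44 members were lower in FLT-Surgery, against 20.5% of probes, and 30 of these were subunits. The study's cut-off was met by 9 members (6.65% of probes), and 10 had FLT-Surgery arrays all below the FLT-Sham arrays (10.6% of probes). None passed an adjusted p of 0.05, as 0.0837% of probes did, the smallest among the members being 0.136. Within the slides that held both groups the subunit median was -2.49 on slide 1 and -1.14 on slide 2.

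The members whose arrays did not overlap between FLT-Sham and FLT-Surgery were Ndufa4 and 9 subunits, 7 of them of the matrix arm. Ndufa4 was 1.54, 1.95, -1.26 and 1.33 in FLT-Sham and -1.48, -3.58 and -4.23 in FLT-Surgery, a difference of -3.98 (SE 0.94, adjusted p = 0.136). Ndufa9, an accessory subunit of the matrix arm that binds NADPH, was 1.65, 1.91, -0.15 and 1.24 against -0.61, -1.04 and -1.50, a difference of -2.21 (SE 0.56, adjusted p = 0.140). In both genes FLT-Sham replicate 8 was the array next above the highest FLT-Surgery array. Ndufa12 differed by -2.82 (SE 0.75, adjusted p = 0.144), Ndufc1, a small membrane-arm subunit, by -2.23 (SE 0.61, adjusted p = 0.145), and Ndufa7, of the quinone-reducing part, by -1.54 (SE 0.46, adjusted p = 0.151). Ndufb5, of the far end of the membrane arm, differed by -1.43 (SE 0.48, adjusted p = 0.159). The overlap was absent for 4 core subunits as well. Ndufv2, an iron-sulfur subunit of the NADH-oxidizing part, read 1.98, 1.94, 0.30 and 1.24 in FLT-Sham and -0.11, -0.28 and -0.81 in FLT-Surgery (difference -1.77, SE 0.50, adjusted p = 0.147). Ndufs3 read 1.89, 1.92, 0.34 and 1.39 against 0.02, -0.19 and -0.82 (-1.71, SE 0.49, adjusted p = 0.149). Ndufv1, which binds NADH and the flavin, differed by -1.01 (SE 0.38, adjusted p = 0.179), and Ndufs7, whose iron-sulfur cluster hands electrons to ubiquinone, by -1.69 (SE 0.52, adjusted p = 0.154).

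**Figure D3:**
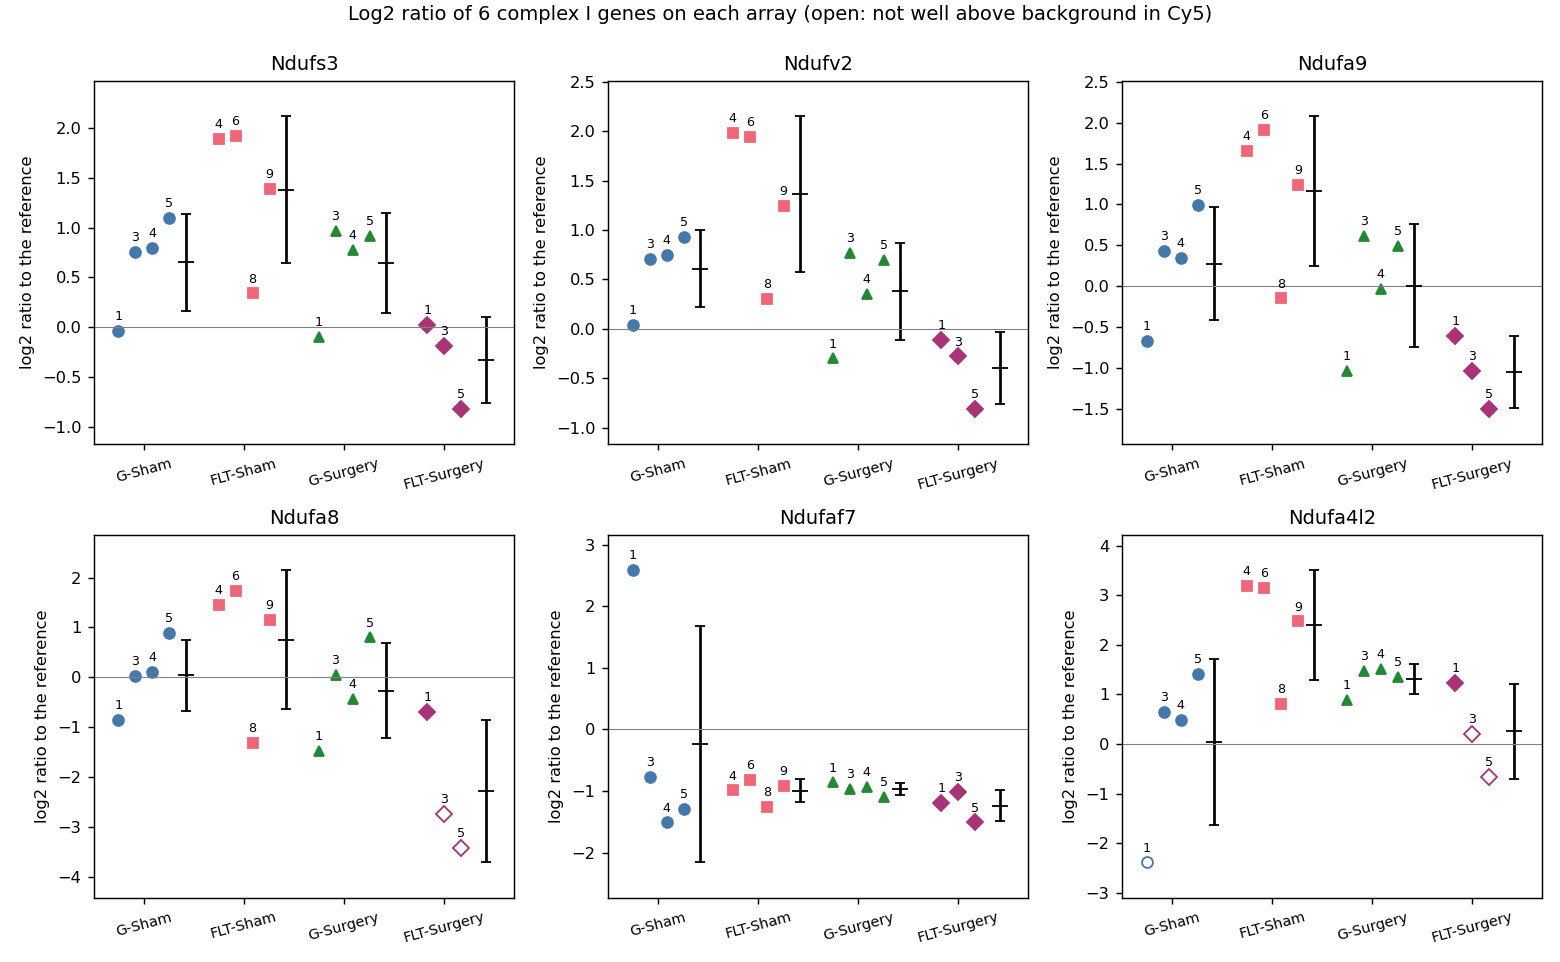
Log2 ratio to the reference RNA of Ndufs3, Ndufv2, Ndufa9, Ndufa8, Ndufaf7 and Ndufa4l2 on each array by group, with open symbols for arrays on which the probe was not above background, and the mean ± SD of each group. In Ndufs3, Ndufv2 and Ndufa9 the 3 FLT-Surgery points lie below all 4 FLT-Sham points, and in Ndufaf7 G-Sham replicate 1 (2.59) stands apart from the other 14 arrays (-1.51 to -0.77).

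Among the other members of the flight comparison, Ndufb2 had the widest difference of the subunits, at -3.47 (SE 0.94, adjusted p = 0.145), and Ndufa1 differed by -2.54 (SE 0.68, adjusted p = 0.144). Ndufb2 was above background on 2 of 3 FLT-Surgery arrays. The core subunit Ndufs1 differed by -0.93 (adjusted p = 0.242). Ndufs8, Ndufa11, Ndufab1 and the assembly factor Ndufaf6 were above background on no FLT-Surgery array and entered through FLT-Sham alone, so the filter set their direction. Ndufs8 differed by -2.31 (adjusted p = 0.208) but by 0.24 with normexp, and Ndufab1 by -1.44 (adjusted p = 0.262) but by 0.22, so neither is given a bound. Ndufa11 differed by -2.46 (adjusted p = 0.198) but by -0.16 with normexp, and no bound is given for it either. Without these 4 genes the subunit median was -1.69, all 33 lay below 0, and 32 of 40 members were lower at the unadjusted p. The smallest differences were those of Ndufb6 (-0.58, adjusted p = 0.471) and Ndufa10 (-0.74, adjusted p = 0.38; 0.07 with normexp), but a second probe of Ndufb6 gave -2.42 (adjusted p = 0.144). A gene's probes did not differ in sign, though they could differ in size: Ndufa5, represented by a probe at -1.45, had another at -4.26, and Ndufb5, at -1.43, had another at -2.77.

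Here too muscle went with the subunits, with a median difference of -2.77 over 16 skeletal muscle markers (15 below 0, 9 with an unadjusted p of at most 0.05) and -4.81 over 8 slow-twitch markers (8 below 0, 7 past it). Casq1 and Mylpf of the former and Csrp3, Myoz2, Tnnc1 and Tnni1 of the latter were above background on no FLT-Surgery array. They entered through FLT-Sham alone, so the filter set their direction. The other slow-twitch markers, Myh7, Myl2, Myl3 and Tnnt1, differed by -6.82, -7.14, -3.71 and -3.42. Adipocyte, neutrophil and erythroid markers had medians of -5.32, -3.10 and -3.57. The adipocyte genes Adipoq, Cidec, Pck1 and Plin1 were above background on no FLT-Surgery array. Those of them that were tested entered through FLT-Sham alone, so the filter set their direction. Osteoblast and osteocyte markers had a median of -1.01 (3 of 6 below 0, 2 with an unadjusted p of at most 0.05). Osteoclast markers had one of -0.91 (2 of 3 below 0, none past it). None of these was tested for its part in the complex I differences. Without FLT-Sham replicate 8 the number of members past the adjusted threshold was 38 of 44, against 32.8% of probes, and 38 were lower at the unadjusted p, against 33.3% of probes. With all 15 arrays in 1 fit it was 9 of 44 (4.55% of probes), and without FLT-Surgery replicate 1 it was 1 (4.08%). The count at the unadjusted p was 13 without FLT-Surgery replicate 5 (10.3% of probes), 18 without FLT-Surgery replicate 3 (11.8%), and 22 without FLT-Sham replicate 6 (9.31%) or with slide as a block (12.9%).

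**Figure D4:**
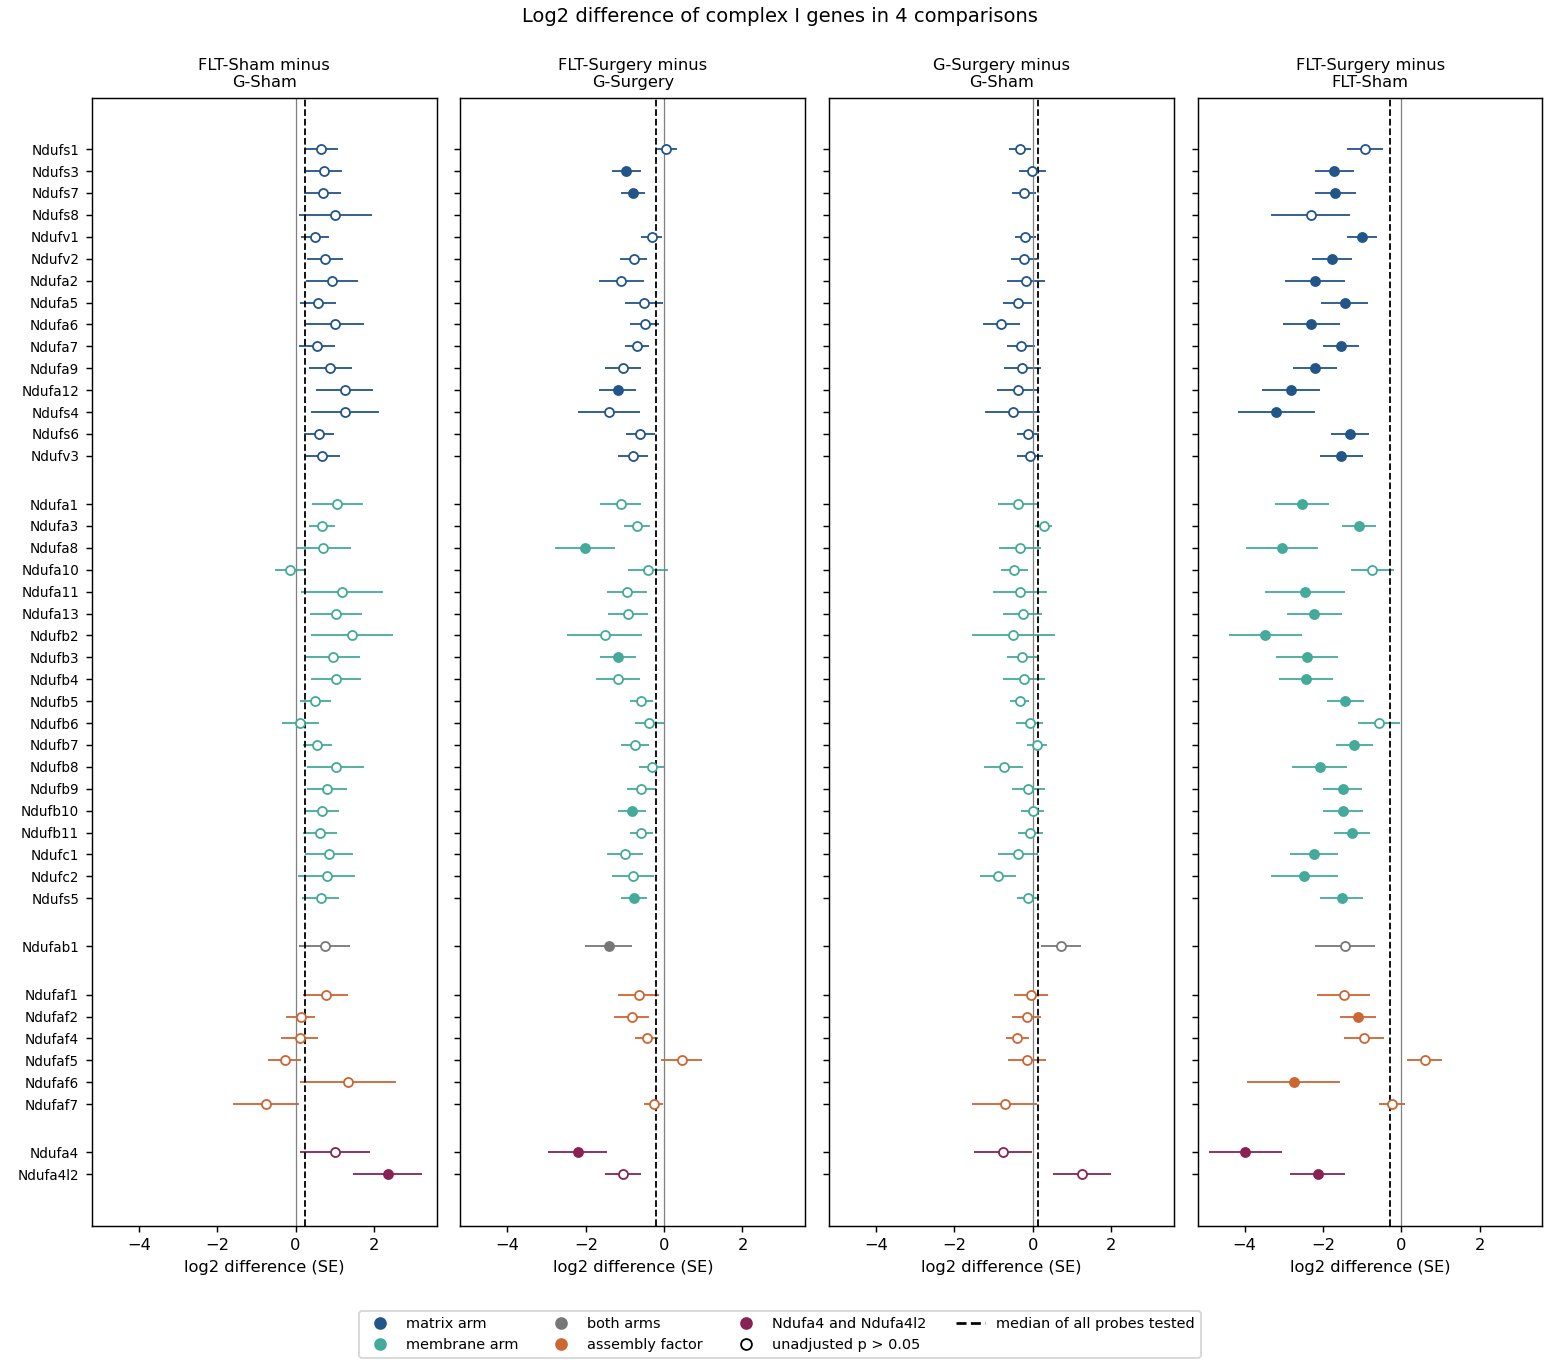
Log2 difference of the complex I genes in the comparisons between groups, subunits by arm and assembly factors apart, with bars of 1 SE, filled symbols for an unadjusted p of at most 0.05 and a dashed line at the median of all probes tested. Every subunit drawn lies below 0 in FLT-Surgery minus FLT-Sham (32 of all 36 subunits with normexp), while every one drawn except Ndufa10 (-0.14) lies above 0 in FLT-Sham minus G-Sham.

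Whether the spaceflight difference depended on surgery was tested as an interaction over all 15 arrays, as the difference in Surgery minus that in Sham. It was negative for all 36 subunits (32 with loess, 30 with normexp), with a median of -1.49 (-2.97 to -0.27) beside -0.36 for all 21770 probes. Of 45 members, 23 had an interaction below 0 at an unadjusted p of at most 0.05, against 16.7% of probes, 21 of them subunits, and 2 met the study's cut-off (5.32% of probes). No member and no probe passed an adjusted p of 0.05 (0%). Ndufa4l2 (-3.41, SE 1.10, adjusted p = 0.179) and Ndufa3 (-1.36, SE 0.46, adjusted p = 0.187) were the pair past the cut-off. Ndufa3 read 1.81, 1.63, 1.59 and 1.91 in G-Sham, 2.73, 2.70, 1.72 and 2.48 in FLT-Sham, 1.76, 2.17, 2.11 and 2.01 in G-Surgery, and 1.94, 0.82 and 1.21 in FLT-Surgery. Its values were high in FLT-Sham and low in FLT-Surgery, with 1 array of each inside the ground range. Ndufs3 (-1.70, adjusted p = 0.194), Ndufb10 of the membrane arm (-1.50, adjusted p = 0.205) and Ndufv2 (-1.54, adjusted p = 0.208) followed. Assembly factors had a median interaction of -0.96, with none of 7 at an unadjusted p of at most 0.05. Skeletal muscle markers had a median interaction of -2.35 and slow-twitch markers one of -5.25. Without FLT-Sham replicate 8, 21 of 45 members passed the adjusted threshold, against 14.1% of probes, and without FLT-Surgery replicate 5, 3 were past the unadjusted p (10.2% of probes). That count was 9 to 14 (11.4 to 16.5% of probes) without FLT-Sham replicate 4, 6 or 9, FLT-Surgery replicate 3, G-Sham replicate 1 or G-Surgery replicate 3 or 5, and it was 6 lower and 1 higher with loess (4.77% of probes lower), 3 with centred arrays (9.15%) and 14 with slide as a block (14.1%). The comparisons share groups of arrays, so their values are not independent of each other.

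The assembly factors did not follow a common course. Ndufaf1, the core of the assembly complex for the proximal membrane arm, came closest to the subunits, with differences of 0.77 in Sham, -0.65 in Surgery (0.04 with loess), -0.05 on the ground and -1.47 in flight (adjusted p = 0.227). Ndufaf2, a paralogue of Ndufa12 that holds its place in a late intermediate, differed by 0.13, -0.83, -0.16 and -1.12 (flight adjusted p = 0.197), and was above background on 1 of 3 FLT-Surgery arrays. In Sham the difference of Ndufaf2 was -0.26 with loess and -0.16 with centred arrays, the other direction. With normexp it turned as well, to -0.33 in Sham, 0.08 in Surgery and 0.25 in flight. Ndufaf4, which acts early on the quinone-reducing part, differed by 0.11 (-0.23 with loess), -0.45 (0.12 with loess), -0.39 and -0.96, and a second probe of Ndufaf4 gave 0.56 in Sham and -3.35 in flight (adjusted p = 0.15). Its partner Ndufaf3 was above background on 3 arrays and was tested in the interaction alone (-1.09, adjusted p = 0.532; 0.54 with loess). Ndufaf6 was above background on no FLT-Surgery array and entered the flight comparison through 3 FLT-Sham arrays, so the filter set its direction. Its flight difference was -2.75 (adjusted p = 0.204) but -0.14 with normexp, and no bound is given. Ndufaf5, which hydroxylates Ndufs7, and the methyltransferase Ndufaf7 gave other patterns.

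Ndufaf5 was the factor with positive differences in flown Surgery mice, 0.45 against G-Surgery (SE 0.52) and 0.59 against FLT-Sham (SE 0.44, adjusted p = 0.385). Its values were 2.66, 3.92, 2.61 and 3.72 in G-Sham, 2.93, 2.84, 2.65 and 3.38 in FLT-Sham, 2.94, 2.83, 4.19 and 2.40 in G-Surgery, and 4.21, 2.77 and 3.63 in FLT-Surgery. All 4 groups overlapped. Ndufaf7 was 2.59, -0.77, -1.51 and -1.29 in G-Sham, -0.99, -0.82, -1.26 and -0.92 in FLT-Sham, -0.86, -0.97, -0.93 and -1.09 in G-Surgery, and -1.20, -1.01 and -1.51 in FLT-Surgery. Apart from 1 G-Sham array its values were close together, with SDs of 0.10 to 0.25 in the other groups. On that array the log2 Cy5 signal was 14.15, compared with 9.69 to 11.20 on the others, while Cy3 was 11.55, inside the range of the others. The Sham difference of -0.75 became 0.19 without it. The Surgery and Flight differences, -0.27 and -0.24, became 0.18 and 0.32 with loess.

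Complex I genes without an Nduf symbol were looked at next, from a list of 19 of which 11 had a matched probe. The mitochondrially encoded mt-Nd genes and Coa1 were not matched and are not analysed here. The median difference was 1.04 in Sham (8 tested), -0.85 in Surgery (5), -0.11 on the ground (6) and -2.17 in flight (8), and the interaction median was -2.17 (9). At an unadjusted p of at most 0.05, 2 of 8 were higher in Sham (8.01% of probes), 2 of 5 lower in Surgery (11.0%), 1 of 6 higher on the ground (8.16%) and 6 of 8 lower in flight (20.5%), and none passed the adjusted threshold. Lyrm2, a small protein of the LYR family, had the smallest p of the list in Surgery, at -2.39 (SE 0.63, adjusted p = 0.280), after 1.62 in Sham (adjusted p = 0.491) and 1.5 on the ground (adjusted p = 0.337). Foxred1, an assembly factor with a flavin domain, differed by 1.87 in Sham (adjusted p = 0.511) and -2.88 in flight (adjusted p = 0.14). Foxred1 and Tmem70, both among the 6 lower in flight, were above background on fewer than 3 Surgery and fewer than 3 ground arrays. They were not tested there. Their entry in Sham and flight needed FLT-Sham arrays, where they were higher, so the filter favoured their direction. Dmac1 and Dmac2, needed for the far membrane arm, differed by -2.07 (adjusted p = 0.154) and -2.26 (adjusted p = 0.152) in flight. Ecsit, a partner of Ndufaf1, differed by -1.56 (adjusted p = 0.171). Timmdc1, of the same assembly complex, ran the other way, with -0.56 in Sham, 1.01 in Surgery and 1.16 in flight (adjusted p = 0.403).

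Regulators of mitochondrial biogenesis, a list of 12 genes all with a probe, had medians of 0.98 in Sham, -0.37 in Surgery, -0.07 on the ground and -1.75 in flight. Past an unadjusted p of 0.05 were 2 of 10 in Sham (both higher, against 8.01% of probes), 1 of 7 in Surgery (lower, 11.0%), none of 9 on the ground and 5 of 10 in flight (all lower, 20.5%). Tfam, which packages and transcribes mitochondrial DNA, differed by -2.59 in flight (SE 0.41, adjusted p = 0.0794) with FLT-Surgery below FLT-Sham on every array. Tfam, Perm1 and Tfb2m, all among the 5 in flight, were above background on fewer than 3 Surgery arrays and were not tested there. Their entry in flight thus needed FLT-Sham arrays, where they were higher, so the filter favoured their direction. Ppargc1a, the coactivator that drives mitochondrial gene programmes, differed by -2.17 (SE 0.60, adjusted p = 0.145). In Sham, Nrf1, a transcription factor of respiratory chain genes, differed by 0.86 (SE 0.32, adjusted p = 0.503) without overlap, and Tfb1m by 1.08 (adjusted p = 0.499). The nuclear receptor Esrra differed by -1.56 in Surgery (SE 0.49, adjusted p = 0.280). Gabpb1 stayed near 0, at -0.03, 0.25, -0.17 and 0.10 in the 4 comparisons.

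The complex I subunits were close to the rest of the respiratory chain. For 46 subunits of complexes II to V the median difference was 0.60 in Sham, -0.79 in Surgery, -0.26 on the ground and -1.74 in flight, next to 0.74, -0.79, -0.27 and -1.70 for complex I. Mitochondrial ribosomal proteins had medians of 0.47, -0.40, -0.11 and -1.06, nearer to 0 in each. No difference between these groups of genes was tested.

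Because Nrf1 was measured and binds many respiratory chain promoters, the 250 bases before a transcript start were searched on both strands, in RefSeq windows of the GRCm38.p6 build that existed for 32 of the 36 subunits and 7 of the 8 assembly factors. Of these 39 windows, 10 overlapped the annotated extent of their gene, which can begin further upstream than the start used. The half-site of NRF1, GCGCANGC, was present in 8 of 32 subunit windows (25%), in 1 of 7 windows of assembly factors (14.3%) and in 11.1% of 17492 windows of protein-coding genes. An ETS site, CCGGAAGT, was in none of the subunit or assembly factor windows and in 3.84% of all. A YY1 site, AANATGGC, was in 4 subunit windows (12.5%), 1 assembly factor window (14.3%) and 3.74% of all. Matches are letters in a window, and binding was not measured. Within a window, matches that overlapped in a chain were counted as 1 stretch. The subunit windows with the most separate NRF1 stretches were Ndufb4 with 3 (chr16:37654369-37654618, minus strand) and Ndufa8 with 2 (chr2:36049339-36049588, minus strand). The Ndufa11 window, not shown, holds more than 1 match in a chain that was counted as 1. These 2 windows and the assembly factor window that has a match, Ndufaf4 (chr4:24897833-24898082, plus strand), are shown 5′ to 3′ along the gene, with matches in capitals. In Ndufaf4 the capitals are overlapping matches on both strands.
Ndufb4: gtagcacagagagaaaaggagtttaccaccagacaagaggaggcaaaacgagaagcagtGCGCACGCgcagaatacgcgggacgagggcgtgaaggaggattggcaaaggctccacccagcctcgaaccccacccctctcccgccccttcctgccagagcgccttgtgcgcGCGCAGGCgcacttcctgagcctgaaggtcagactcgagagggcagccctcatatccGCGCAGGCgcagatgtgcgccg
Ndufa8: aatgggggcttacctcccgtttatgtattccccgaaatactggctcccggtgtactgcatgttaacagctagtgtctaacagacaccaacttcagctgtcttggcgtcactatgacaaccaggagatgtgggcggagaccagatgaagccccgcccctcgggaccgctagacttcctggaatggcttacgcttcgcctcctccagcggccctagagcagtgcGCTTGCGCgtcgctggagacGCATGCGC
Ndufaf4: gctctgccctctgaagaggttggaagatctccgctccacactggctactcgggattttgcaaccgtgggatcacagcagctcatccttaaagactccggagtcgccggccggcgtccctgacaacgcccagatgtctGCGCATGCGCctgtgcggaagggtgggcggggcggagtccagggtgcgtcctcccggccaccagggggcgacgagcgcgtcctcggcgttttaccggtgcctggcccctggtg

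The 8 subunits with an NRF1 match had a median difference of 0.76 in Sham, -0.79 in Surgery, -0.32 on the ground and -2.37 in flight (-3.05 to -1.31). Those without a match had medians of 0.74 (24 subunits), -0.79 (23), -0.26 (23) and -1.70 (24, -3.47 to -0.58), and no difference between them was tested. Ndufb4, with 3 matches, differed by 1.03 in Sham (adjusted p = 0.533) and -2.43 in flight (SE 0.69, adjusted p = 0.146), and Ndufa8, with 2, by 0.71 and -3.05.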

How the data were processed

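RNA from femoral segments of 15 mice, 1 array each, was labelled with Cy5 and hybridised with a Cy3-labelled universal mouse reference RNA, without dye swaps. The authors deposited Agilent scanner files (Agilent Feature Extraction 12.0 in the submitters' processing notes) with spot intensity in each channel and a log10 ratio of Cy5 over Cy3, background-subtracted and dye-normalized (linear and LOWESS) per the file headers. The deposited log10 ratio was turned into log2 without further normalization. It is 0 where neither channel was measurable, which held for 15.9 to 32.3% of spots. The authors' table of processed log10 ratios served as an alternative.

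Spots of a probe were averaged, and control spots and outlier flags were left out. A probe entered a comparison if its Cy5 signal was well above background on 3 or more of the arrays in it. Differences were fitted by limma 3.58.1 (R 4.3.3), with Benjamini-Hochberg adjustment over all probes that entered. The tests were checked on simulated data. Of 55681 probes, 28026 matched a gene symbol through RefSeq accessions. No bound on a fold change is given where a probe was above background on no array of a group. Genes were named by p (the 5 smallest per comparison and direction), as core subunits, as assembly factors or as genes without overlap between groups; others were picked after their values were seen. The gene-level values of 1 member are not reported here, though it is in the counts and medians. Members, lists and tests were chosen with earlier results of these data known, and the assignment of subunits to arms was added later. Alternatives covered dye normalization, centring, background correction (normexp with offset 50 on median in place of mean signals), the Cy5 channel alone scaled to its percentile 75, the filter, the fit, slide, probe choice, replicate number and each array left out. The number of arrays limits the precision.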

Additional observations from a re-analysis of the deposited data

Results flagged for a closer look

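Among 114 groups of 4 arrays examined, over 37 named genes, 3 held an array far from the other 3, and chance alone sets apart about 1 in 20. Ndufaf1 was -0.77 in FLT-Sham replicate 8, while its 3 companions lay at 0.85 to 1.11, a gap of 0.87 of the group's range. Ndufaf2 was -2.05 in G-Sham replicate 1, with the others at -1.02 to -0.94, a gap of 0.93 of the range. Ndufb6 was -1.0 in FLT-Sham replicate 8, against 0.35 to 0.55 in the others, a gap of 0.87 of the range. Both arrays were also the lowest of their groups for most subunits.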

How the results depend on the processing

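The subunit median kept its direction in each comparison under every refit, while counts of genes moved. Within slide 2 alone the Ground median was 0.30, the other direction. Shares in brackets are of all probes, higher in Sham and lower elsewhere. At an unadjusted p of at most 0.05, the Sham count of 1 was 2 without a filter (4.83%) and with all 15 arrays in 1 fit (10.3%). The Surgery count of 9 was 2 with loess (2.56%), 1 with centred arrays (4.38%) and 4 with Cy5 alone (6.29%). It was 15 with the filter on both channels (10.2%), 23 with slide as a block (17.5%) and 4 with all 15 arrays (10.4%). The Ground count of 0 was 4 with loess (4.82%), 4 with centring (6.03%), 6 with normexp (7.13%) and 1 without a filter (2.38%). The Flight count of 34 was 22 with slide as a block (12.9%), and its adjusted count of 0 was 9 with all 15 arrays (4.55% past the adjusted threshold). The interaction count of 23 was 7 with loess (4.77%), 3 with centring (9.15%) and 14 with slide as a block (14.1%). The causes were not tested.

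Leaving out each array gave adjusted counts of 0 to 0 in Sham and Ground, 0 to 5 in Surgery, 0 to 38 in Flight and 0 to 21 for the interaction. Of all probes, 0 to 2.98%, 0 to 0.163%, 0 to 8.37%, 0 to 32.8% and 0 to 14.1% passed the adjusted threshold in Sham, Ground, Surgery, Flight and the interaction. Unadjusted counts were 0 to 35, 0 to 8, 0 to 32, 13 to 38 and 3 to 35 in that order. The shares of all probes in the main direction were 2.35 to 25.0%, 1.64 to 8.63%, 5.39 to 21.6%, 9.31 to 33.3% and 10.2 to 27.3%. The subunit medians were 0.49 to 1.14, -0.58 to -0.03, -1.06 to -0.59, -2.08 to -1.48 and -1.90 to -1.26. Over all probes the median moved from 0.24 to -0.13 (loess) or -0.05 (centring) in Sham, from -0.20 to 0.30 or 0.12 in Surgery, from 0.14 to -0.09 or -0.08 on the ground, from -0.28 to 0.36 or 0.20 in flight, and from -0.36 to 0.50 or 0.17 for the interaction.

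Directions turned for these genes. In Sham they were Ndufaf2 (-0.26 loess, -0.16 centred, -0.33 normexp), Ndufaf4 (-0.23, -0.18, -0.16) and, with normexp, Ndufaf7 (0.07) and Ndufs8 (-0.10). In Surgery they were Ndufaf7 (0.18 loess, 0.05 centred, 0.19 normexp), Ndufaf1 (0.04 loess, 0.03 normexp), Ndufaf4 (0.12 loess), Ndufaf2 (0.08 normexp), Ndufa11 (0.27 normexp) and Ndufv1 (0.01 centred). On the ground they were Ndufb10 (-0.03 loess, -0.21 centred) and Ndufb7 (-0.10 centred). In flight they were Ndufaf7 (0.32, 0.25, 0.42) and, with normexp, Ndufs8 (0.24), Ndufaf2 (0.25), Ndufab1 (0.22) and Ndufa10 (0.07). The interaction of Ndufaf3 was 0.54 with loess and 0.11 with normexp. With an array left out, the ranges that crossed 0 were Ndufaf7 -1.18 to 0.19, Ndufa10 -0.41 to 0.04, Ndufaf2 -0.13 to 0.24 and Ndufaf4 -0.13 to 0.48 in Sham, Ndufs1 -0.09 to 0.20 in Surgery, Ndufb10 -0.11 to 0.19 on the ground, and Ndufaf7 -0.47 to 0.90 for the interaction. Of the other values for named genes, 706 kept direction and side of the threshold, 28 gained it and 57 lost it.

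Equal replicate numbers did not pair the arrays: same-numbered deviations correlated at -0.36, -0.19 and 0.24 in Surgery and 0.35, -0.05, -0.07 and -0.16 on the ground. With the replicate block the counts were 1 in Surgery (5.56% of probes) and 1 on the ground (2.95%), and Ndufs1 was -0.02 in Surgery. No paired analysis was possible in Sham and Flight because they share fewer than 2 numbers.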
